A study of Mus musculus with 18 samples.

Results

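Antisense and divergent promoter non-coding RNAs were followed through the polysome gradients of mouse embryonic stem cells (ESCs) with and without the RNA helicase DDX6. They were the genes that Gencode M21 types as antisense (transcribed from the opposite strand of another gene) or as bidirectional promoter lncRNA (starting beside the promoter of a coding gene and running away from it). Autosomal genes with at least 3 CPM (read counts scaled to a common library size) in 3 or more of the 18 libraries were kept, except Gas5 and the Snhg genes. This gave 130 RNAs, 104 antisense and 26 bidirectional, which was 4.76% of the 2729 annotated genes eligible before the CPM filter. Of the others, 1393 had no count in any library and 1206 had counts but stayed below the filter. Gm11696 passed with 3.04 CPM in the lowest of its 3 highest libraries, and Gm37305 just missed with 2.97 CPM. Together the 130 RNAs held between 0.04% and 0.185% of the gene counts of a library. Of these RNAs, 96 were also typed as lncRNA by RefSeq, 33 had no RefSeq entry under their symbol, and Gm11837 was typed there as protein-coding.

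The study compared V6.5 ESCs that were wild-type (WT) with Ddx6 knockout (KO) cells made from them with CRISPR-Cas9, both cultured with serum, LIF and 2i (inhibitors that hold ESCs in the naive state). Cells were treated with 100 µg/ml cycloheximide, which holds ribosomes on RNA, for 2 min before lysis, and the lysates were spun through a 10% to 50% sucrose gradient. From each gradient a monosome fraction, a low polysome fraction of 2 to 4 ribosomes and a high polysome fraction of 4 or more ribosomes were sequenced at the 3′ ends of poly(A) RNA, with 3 gradients per genotype. Clone 1 gave KO gradient 1, and clone 2 gave the other two, so the KO group stands for a pair of clones, and clone 1 was measured in 1 gradient only.

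Divergent and antisense transcription is common at mammalian promoters. Most such RNAs are short-lived nuclear transcripts that the exosome removes, and those that are spliced and polyadenylated can be exported. Ribosomes can engage short reading frames in exported non-coding RNAs, which places them in monosome or polysome fractions. DDX6 acts in the cytoplasm, where it links deadenylated mRNA to translational repression and decapping and is a core component of P-bodies. The 3′ end reads are strand-specific, so an antisense RNA and its partner gene on the opposite strand were counted apart.

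Library totals ranged from 2543617 to 11474550 gene counts, with the WT monosome libraries the shallowest. The 8 ESC markers all passed the filter, with summed levels of 2500 to 5418 CPM in WT and 2724 to 4174 CPM in KO libraries. Feeder fibroblast markers summed to 4.65 to 10.7 CPM in WT and 5.79 to 11.1 CPM in KO libraries, with Col3a1 at 0 in all of them, and trophoblast markers to 2.33 to 6.80 and 3.86 to 8.01 CPM. Primitive endoderm markers summed to 4.18 to 11.1 CPM in WT and 7.31 to 26.6 CPM in KO libraries, and neural markers to 82.3 to 167 CPM in WT and 52.8 to 126 CPM in KO libraries. Ddx6 itself had 143 to 212 CPM in WT, 55.3 to 82.7 CPM in KO clone 1 and 9.67 to 26.7 CPM in KO clone 2. Because the samples are bulk lysates, fewer cells of a type and less RNA per cell cannot be told apart, and the part of these markers in the changes below was not tested.

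Relative to other genes, most of the 130 RNAs had their highest level in the lightest of the 3 fractions in WT cells. Levels are scaled within each library, so the share of an RNA's molecules in each fraction was not measured. The mean level was highest in the monosome for 94 RNAs (72.3%), in the low polysome for 34 (26.2%) and in the high polysome for 2 (1.54%). Over all 12705 genes tested, the corresponding shares were 32.9%, 29.7% and 37.4%. The high polysome over monosome ratio, tested with limma, was lower than 1 for 110 of the 130 RNAs and higher for 2, against 32.2% of all genes lower and 28.9% higher. The median log2 ratio was -2.03, against -0.02 over all genes and 0.06 over the 11773 protein-coding genes. Intergenic lncRNAs (lincRNAs), the class most like these RNAs, had a median of -2.39 with 173 of 194 lower and none higher, and no test of the difference between the classes was made. The 26 bidirectional RNAs had a median of -2.34, with 24 lower, and the 104 antisense RNAs had a median of -2.02, with 86 lower and 2 higher. As 24 of the 130 RNAs passed the CPM filter through monosome libraries alone, these had to be lower in the high polysome, and the counts are given as a description.

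**Figure D1:**
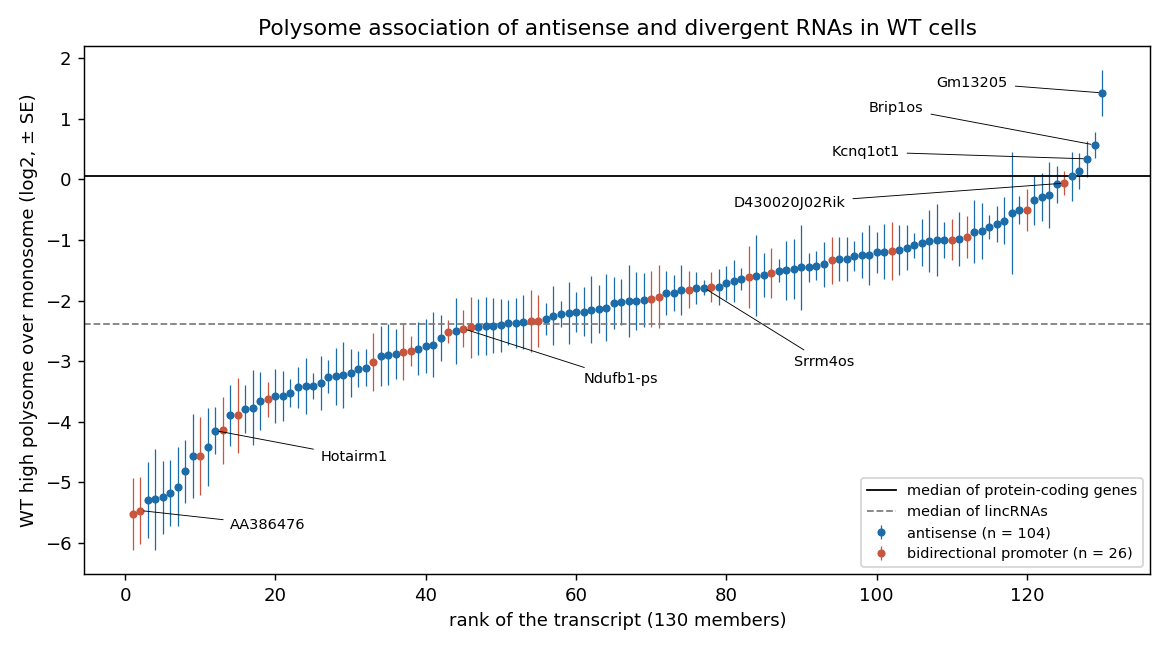
The y axis gives the WT high polysome over monosome ratio (log2 units of the limma fit, bars ± SE) of each of the 130 RNAs, ranked on the x axis. Points are coloured by Gencode type, and lines mark the medians of protein-coding genes (0.06) and lincRNAs (-2.39). The RNAs run from -5.52 to 1.43, and 125 of 130 lie below 0.

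The step from monosome to low polysome was smaller. In WT cells 46 RNAs were lower and 7 higher in the low polysome than in the monosome, against 22.8% and 20.4% of all genes, with a median log2 ratio of -0.54 against -0.01. Kcnq1ot1 was among those that were higher, with a log2 ratio of 1.21 (SE 0.29, adjusted p = 0.00185). BC051226 was higher by 0.69 (SE 0.22, adjusted p = 0.0160) and Gm38979 by 0.81 (SE 0.21, adjusted p = 0.00436). For BC051226 the adjusted p was 0.106 without WT gradient 1. Gm12925 passed in the main fit with 0.55 (SE 0.22, adjusted p = 0.0446), but had an adjusted p of 0.0708 with the gradient as a replicate block. Its adjusted p lay between 0.0829 and 0.229 when any WT gradient was left out, and was 0.0543 without KO gradient 1. In these 4 RNAs, then, the low polysome held the highest level in WT, while the high polysome over monosome ratio ranged from -1.78 to 0.34.

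The most abundant of these RNAs was Ndufb1-ps, at a mean of 196 CPM over the 18 libraries. It is named as a pseudogene of the complex I subunit gene Ndufb1 and lies on chr12:101968090-101977068 (GRCm38, minus strand), where it overlaps 1081 bases of Cpsf2, a pre-mRNA 3′ end processing factor gene. In WT its monosome levels were 347, 337 and 281 CPM, its low polysome levels 354, 331 and 122 CPM, and its high polysome levels 56.3, 56.0 and 61.6 CPM. All 3 high polysome values thus lay below every value of the other fractions, while 1 low polysome library, that of gradient 3, stood apart from the other two. The log2 ratio of high polysome to monosome was -2.46 (SE 0.30, adjusted p = 6.28e-07). Srrm4os, at 116 CPM, is antisense to Srrm4, which encodes a neural splicing factor. Its WT monosome levels were 168, 172 and 164 CPM and its high polysome levels were 43.9, 50.9 and 51.2 CPM, a log2 ratio of -1.79 (SE 0.13, adjusted p = 2.33e-10). The reading frames of both, the longest from ATG to stop in their annotated transcripts, are shown because they are the most counted RNAs of the group. Whether these frames are translated was not tested, so neither RNA is shown to be non-coding by these data. Start and stop codons are in capitals, and the sequences are those of Gencode transcripts. The Ndufb1-ps frame has 57 codons and the Srrm4os frame 98.
Ndufb1-ps: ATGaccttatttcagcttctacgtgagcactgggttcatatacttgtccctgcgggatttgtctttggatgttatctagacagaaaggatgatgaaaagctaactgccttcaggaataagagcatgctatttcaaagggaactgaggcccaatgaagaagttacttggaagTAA
Srrm4os: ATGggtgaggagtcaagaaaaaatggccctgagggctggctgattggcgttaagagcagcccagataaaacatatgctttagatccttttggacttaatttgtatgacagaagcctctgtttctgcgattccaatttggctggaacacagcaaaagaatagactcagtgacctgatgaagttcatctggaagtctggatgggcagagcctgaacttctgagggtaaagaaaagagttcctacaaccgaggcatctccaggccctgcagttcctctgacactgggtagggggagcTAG

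A further 4 abundant RNAs were lower in the high polysome. Gm13580 (60.7 CPM) had 93.2, 90.4 and 104 CPM in the WT monosome and 32.6, 28.7 and 30.9 CPM in the high polysome, a log2 ratio of -1.65 (SE 0.18). BC051226 (41.3 CPM), which starts 97 bases from the start of Daxx, the gene of a histone H3.3 chaperone, had a ratio of -1.78 (SE 0.25). Rab10os (29.5 CPM), antisense to the small GTPase gene Rab10, had a ratio of -2.22 (SE 0.21). The ratio of 2810013P06Rik (23 CPM), which diverges from the chromatin regulator gene Ankrd11 at 189 bases, was -2.52 (SE 0.19). All of these had limma adjusted p-values of 3.87e-06 or less. As 2810013P06Rik overlaps Gm20388 on the same strand, the assignment of its reads is uncertain.

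Brip1os was the abundant RNA with the highest polysome association. It starts 177 bases from Brip1, the gene of a DNA repair helicase, and runs through the body of Ints2 on the opposite strand (chr11:86201370-86304443, GRCm38, plus strand). Its levels rose across the WT fractions, with 20.7, 29.5 and 20.3 CPM in the monosome, 31.1, 28.4 and 34.6 CPM in the low polysome and 38.4, 31.7 and 34.9 CPM in the high polysome. Monosome and high polysome values did not overlap. The log2 ratio was 0.57 (SE 0.22, adjusted p = 0.0313), and the adjusted p rose to 0.113 without WT gradient 1 and to 0.210 without WT gradient 3. In KO cells the ratio was 0.75 (SE 0.19, adjusted p = 0.00119). Brip1 itself had a WT log2 ratio of -0.93, against the 0.57 of its divergent RNA, a difference that was not tested.

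D430020J02Rik, which diverges from the condensin II subunit gene Ncapg2 at 192 bases, had similar levels in the monosome and high polysome of WT cells. It had 15.1, 13 and 18 CPM in the monosome and 13.6, 15.2 and 15.4 CPM in the high polysome, a log2 ratio of -0.06 (SE 0.20, adjusted p = 0.809). The KO values were 18.6, 21.8 and 23 CPM and 28.1, 26.2 and 30.5 CPM, which did not overlap. There the ratio was 0.42 (SE 0.16, adjusted p = 0.0221), and the adjusted p was 0.0948 without KO gradient 1 and 0.0690 without KO gradient 3. The difference between the genotypes, 0.48 (SE 0.26), did not pass the test (adjusted p = 0.196).

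Kcnq1ot1, the imprinted antisense RNA that silences genes of the Kcnq1 domain in cis, was highest in the low polysome. In WT cells it had 15.9, 14.9 and 16.2 CPM in the monosome, 31.1, 33.8 and 45.5 CPM in the low polysome and 14.1, 21.3 and 25 CPM in the high polysome. The high polysome over monosome ratio was 0.34 (SE 0.29, adjusted p = 0.327), with overlapping values. It is annotated as 1 exon of 93092 bases. Ranked among RNAs that averaged 5 CPM or more in the 6 WT monosome and high polysome libraries, the others of the 6 highest were 6330410L21Rik (log2 ratio 0.13, SE 0.30), antisense to Egf, Gm9888 (-0.08, SE 0.31), antisense to Cmtm7, and Gm9776 (-0.50, SE 0.35), which diverges from the adaptor complex gene Ap3b1 at 37 bases. None of these 3 passed the test. The 0.13 of 6330410L21Rik was -0.02 without WT gradient 2.

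The highest ratio of all belonged to Gm13205, antisense to the transcription factor gene Casz1, which is named here after its values were seen because its mean over the WT monosome and high polysome libraries is under 5 CPM. It had 1.99, 2.32 and 2.90 CPM in the WT monosome and 7.32, 5.40 and 8.29 CPM in the high polysome, a log2 ratio of 1.43 (SE 0.38, adjusted p = 0.00269). In KO cells the ratio was 0.73 (SE 0.30, adjusted p = 0.0347), and the adjusted p was 0.367 without KO gradient 1, 0.0977 without KO gradient 3 and 0.0512 without WT gradient 1. Gm13205 and Brip1os were the 2 RNAs called higher in the WT high polysome.

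At the other end, the 6 lowest RNAs with the same minimum of 5 CPM had log2 ratios of -3.79 to -5.52, and less abundant RNAs also lay in that range. AA386476 starts 165 bases inside Ing2, the gene of a chromatin reader, on the opposite strand. It had 21.1, 28.6 and 26.3 CPM in the WT monosome, 6.25, 4.93 and 7.74 CPM in the low polysome and 0.257, 1.30 and 0.377 CPM in the high polysome. Its log2 ratio was -5.46 (SE 0.55, adjusted p = 3.77e-08). Gm17249 starts 286 bases inside Polr3b, which encodes an RNA polymerase III subunit, on the opposite strand. It had 12.7, 10.9 and 11.4 CPM in the monosome and 0, 0.5 and 0.377 CPM in the high polysome, a ratio of -5.52 (SE 0.60, adjusted p = 1.01e-07). The ratio of Gm36266, antisense to Fbxo24, was -5.24 (SE 0.60), and that of A630072M18Rik, within Rsbn1l, was -4.82 (SE 0.52). For 4930526L06Rik, which diverges from Ms4a13, it was -3.79 (SE 0.40).

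Hotairm1, annotated with 3 exons, had 12.3, 9.06 and 9.74 CPM in the WT monosome, 3.68, 3.24 and 2.79 CPM in the low polysome and 0.642, 0.400 and 0.565 CPM in the high polysome. The values fell at each step with no overlap, and the log2 ratio was -4.15 (SE 0.39, adjusted p = 1.58e-08). Nespas, the imprinted antisense RNA of the Gnas locus, had a ratio of -2.30 (SE 0.27, adjusted p = 3.24e-07), from 38.2, 41.8 and 38.1 CPM in the monosome to 6.55, 9.10 and 8.19 CPM in the high polysome. Tug1, a conserved lncRNA that diverges from Morc2a, had a ratio of -1.87 (SE 0.30, adjusted p = 1.68e-05).

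The start codons of the longest reading frames were compared between RNAs at both ends of this range. They need not be the first ATG that a scanning ribosome would meet. Upstream of them lie 5 ATGs in Brip1os, 1408 in Kcnq1ot1, 18 in D430020J02Rik and 42 in Gm17249, against 0 in AA386476 and Hotairm1. Which ATG is used was not tested. Each line gives 9 bases before the ATG, the ATG in capitals and 24 bases after it, from the Gencode transcript, first for Brip1os, Kcnq1ot1 and D430020J02Rik and then for AA386476, Gm17249 and Hotairm1.
Brip1os: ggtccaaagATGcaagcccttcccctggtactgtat
Kcnq1ot1: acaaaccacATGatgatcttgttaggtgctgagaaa
D430020J02Rik: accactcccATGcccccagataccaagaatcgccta
AA386476: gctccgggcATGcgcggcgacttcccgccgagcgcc
Gm17249: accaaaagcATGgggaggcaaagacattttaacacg
Hotairm1: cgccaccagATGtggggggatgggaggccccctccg
A purine 3 bases before the ATG, the base most favoured in the start context of vertebrate mRNAs, was present in Brip1os but not in Kcnq1ot1 or D430020J02Rik. At the depleted end it was present in AA386476 and Gm17249 but not in Hotairm1. Over the 130 RNAs, 69 (53.1%) had it and 27 also had a G directly after the ATG.

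The length of the reading frame did not order the RNAs by polysome association. The longest frames ran from 21 to 493 codons with a median of 80.5, and Spearman's rho with the WT log2 ratio was -0.04 over the 130 RNAs. Spearman's coefficient was 0.01 with spliced length and -0.03 with exon number. These are descriptions over RNAs that share the same libraries, and longer transcripts hold longer frames by composition (rho 0.60). The median ratio was -1.97 for the 21 RNAs with frames under 50 codons, -2.30 for the 65 with 50 to 99 codons and -2.01 for the 44 with 100 or more. Of the 4 RNAs with frames over 200 codons, Brip1os (282 codons), Kcnq1ot1 (250) and D430020J02Rik (290) were among the 6 highest named above, whereas B230354K17Rik (493 codons) had a ratio of -1.82. The 19 RNAs of 1 exon had a median of -1.45, against -2.12 for the 41 with 2 exons and -2.11 for the 70 with 3 or more.

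**Figure D2:**
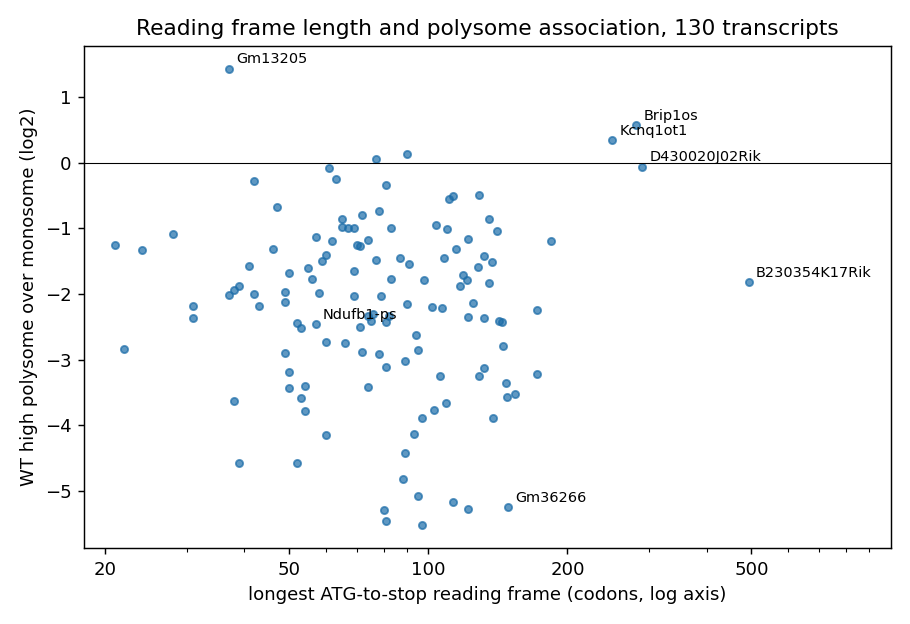
The x axis gives the longest ATG-to-stop reading frame of each RNA in codons (log axis), and the y axis its WT high polysome over monosome ratio (log2). Each of the 130 points is 1 RNA. The cloud shows no slope (rho -0.04), and 3 of the 4 RNAs with frames over 200 codons lie at -0.06 or above.

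The distribution of these RNAs was next measured in Ddx6 KO cells. The high polysome over monosome ratio was lower than 1 for 115 RNAs and higher for 3, against 33.6% and 35.0% of all genes, with a median log2 ratio of -2.37 against 0.03. The 3 that were higher were Brip1os, D430020J02Rik and Gm13205, and without KO gradient 1 or KO gradient 3 there was 1. The monosome held the highest mean level for 113 RNAs (86.9%), the low polysome for 16 (12.3%) and the high polysome for 1 (0.769%), while over all genes these shares were 36.3%, 21.9% and 41.8%.

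The effect of the KO on the high polysome over monosome ratio, tested as an interaction, was called for 5 of the 130 RNAs, 2 raised and 3 lowered, against 10.7% raised and 7.09% lowered over all genes. The median effect was -0.16 on the log2 scale, against 0.02 over all genes, with 62 values above and 68 below 0. At an unadjusted p under 0.05 there were 18 of the 130, against 4179 of all 12705 genes. When single gradients were left out, the raised RNAs numbered 0 without WT gradient 1 and without either gradient of KO clone 2, and the lowered RNAs 0 without WT gradient 2. The median SE was 0.64 for these RNAs and 0.29 for all genes, so an effect of a given size was less likely to be detected for them.

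In both RNAs with a raised ratio the KO monosome level was lower. 9130221H12Rik, antisense to Gsk3a, had 39.4, 27.9 and 31.3 CPM in the WT monosome and 22.1, 18 and 16.4 CPM in the KO monosome, with no overlap. In the high polysome it had 12.1, 11.1 and 10.6 CPM in WT and 10.7, 17.7 and 13 CPM in KO cells, where the values overlapped. The log2 ratio was -1.51 in WT and -0.47 in KO, a difference of 1.04 (SE 0.26, adjusted p = 0.00938). The adjusted p was 0.0589 without WT gradient 1, 0.0625 without KO gradient 2 and 0.0683 without KO gradient 3. It begins 1180 bases downstream of Zfp526 on the same strand, and whether its reads include readthrough from that gene was not tested.

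B230354K17Rik starts 139 bases inside the spliceosome gene Cdc5l on the opposite strand. Its WT monosome levels were 23.1, 26.2 and 27.8 CPM and its KO monosome levels 9.70, 9.79 and 12.9 CPM, with no overlap, whereas its high polysome levels were 4.49, 8.5 and 9.42 CPM in WT and 5.79, 7.28 and 10.6 CPM in KO. The ratio was -1.82 in WT and -0.47 in KO, a difference of 1.35 (SE 0.44, adjusted p = 0.0382). The adjusted p was 0.0923 and 0.101 without WT gradients 1 and 2, and 0.0904 and 0.153 without KO gradients 2 and 3. It was also above the threshold with library size as the only scaling (0.0623) and with no filter on low counts (0.0863). Cdc5l did not pass the test between KO and WT over all fractions (0.06, SE 0.08, adjusted p = 0.529).

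The 3 RNAs with a lowered ratio had KO high polysome means below those of WT. Gm12925, antisense within the cytoskeletal linker gene Macf1, had 4.62, 5.40 and 4.52 CPM in the WT high polysome and 2.12, 1.20 and 2.46 CPM in KO, with no overlap, while its monosome levels of 9.56 to 13.7 CPM in WT and 10.3 to 12.1 CPM in KO overlapped. The effect was -1.27 (SE 0.39, adjusted p = 0.0281), and the adjusted p lay between 0.0508 and 0.0809 when any of the 6 gradients was left out. Rab10os had monosome levels of 52.2, 47.4 and 46.6 CPM in WT and 65.8, 55 and 72.7 CPM in KO, and high polysome levels of 13.1, 9.30 and 9.51 CPM in WT and 7.79, 5.0 and 8.18 CPM in KO. Neither fraction overlapped between the genotypes. Its effect was -1.0 (SE 0.31, adjusted p = 0.0291), with an adjusted p of 0.0520 to 0.0811 when any gradient other than KO gradient 1 was left out. The protein-coding partner Rab10 rose by 0.47 (SE 0.08) in KO over all fractions.

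Sp3os, which lies beside the transcription factor gene Sp3, had 24.7, 20.7 and 24.7 CPM in the WT monosome and 39.8, 33.6 and 36.4 CPM in the KO monosome. Its high polysome levels were 8.21, 7.50 and 9.79 CPM in WT and 6.35, 8.70 and 4.60 CPM in KO. The monosome values did not overlap and the high polysome values did. The effect was -1.08 (SE 0.33, adjusted p = 0.0302), with an adjusted p of 0.0902 without WT gradient 2, 0.0713 without KO gradient 1 and 0.169 without KO gradient 3.

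**Figure D3:**
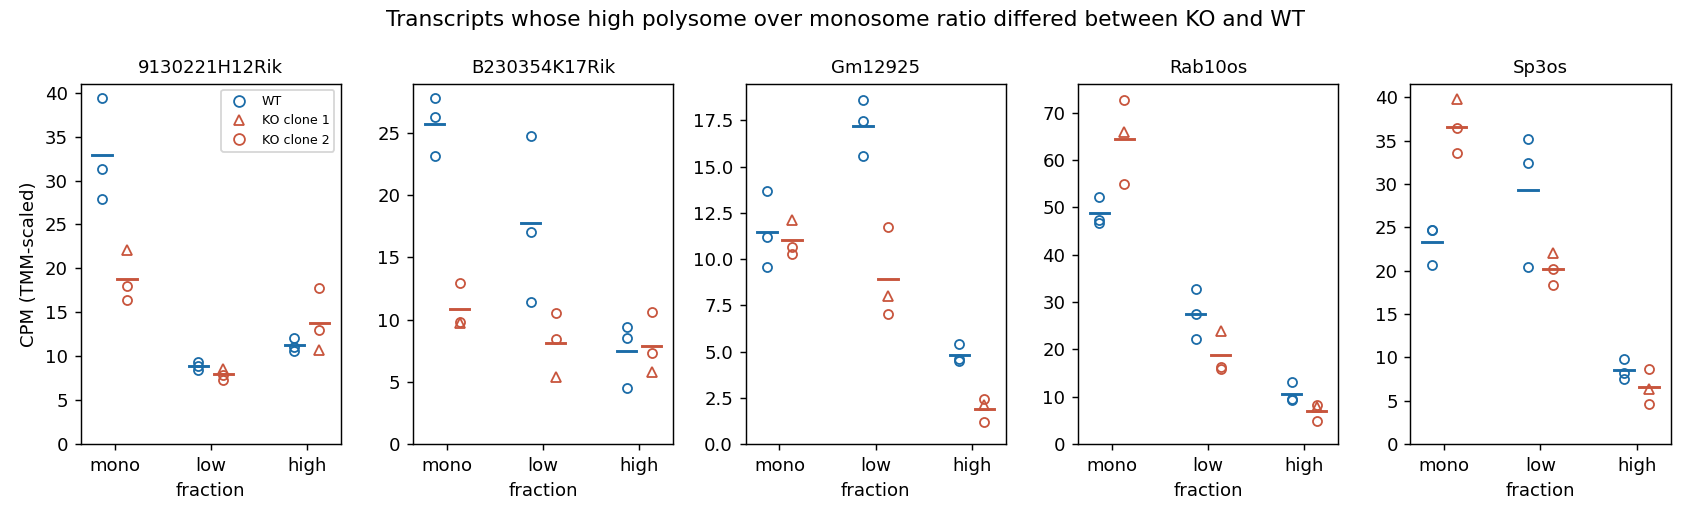
Each panel gives the level of 1 RNA in every library (TMM-scaled CPM, linear axis from 0) by fraction on the x axis, for WT and KO cells, with horizontal lines at the group means and triangles for KO clone 1. The 2 panels on the left show the fall of the KO monosome level, with no overlap with WT, and the 3 on the right show KO high polysome means below WT.

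Most of these RNAs were at lower levels in the gradient fractions of Ddx6 KO cells when set against other genes. None of the 18 libraries is of total RNA or of RNA outside these fractions, so levels in the whole cell were not measured. Over the 3 fractions, 75 of the 130 were lower in KO cells and 11 higher, against 31.5% and 30.6% of all genes, with a median log2 difference of -0.65 against -0.02. With the fractions of each gradient averaged, so that 3 gradients were compared with 3, an alternative added after the data were seen, 69 RNAs were lower and 11 higher, against 28.6% and 28.5% of all genes, and 80 of the 86 calls passed with the same sign. By the mean of log2(CPM + 0.5), the median difference of the 130 RNAs from the WT libraries was -0.45 for clone 1 and -0.54 for clone 2. The lincRNAs had a median of -0.70, with 120 of 194 lower and 15 higher. As 18 of the 130 passed the CPM filter through WT libraries alone and 1 through KO libraries alone, the split is in part set by the filter. Of the 72 RNAs with 3 CPM in 3 libraries of each genotype, another alternative chosen after the data were seen, 34 were lower and 8 higher. WT monosome libraries had fewer counts than those of KO, and with every library thinned to the same depth 65 of the 86 calls passed the test with the same sign.

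The fractions were also compared one by one. In the monosome 46 RNAs were lower and 8 higher, against 20.1% and 18.6% of all genes, with a median difference of -0.46. In the low polysome 63 were lower and 9 higher, against 24.3% and 23.4%, with a median of -0.80. In the high polysome 33 were lower and 10 higher, against 21.1% and 25.3%, with a median of -0.58, so there the share that was lower (25.4%) lay near that of all genes. At equal depth the high polysome counts were 16 lower and 4 higher, and there were 19 lower without WT gradient 2 and 20 without KO gradient 2. Comparisons in the 3 fractions rest on different libraries of the same gradients.

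1700097N02Rik fell most. It is typed as bidirectional and overlaps the axonemal dynein gene Dnah8 on the other strand. As it shares a strand and bases with the glyoxalase gene Glo1, the assignment of its reads is uncertain. Its monosome levels were 23.1, 25.1 and 25.3 CPM in WT and 3.83, 1.57 and 1.92 CPM in KO cells. In the high polysome they were 3.98, 3.70 and 2.83 CPM in WT and 0.111, 0.326 and 0.716 CPM in KO. No fraction overlapped between the genotypes, and the log2 difference over all fractions was -3.50 (SE 0.24, adjusted p = 1.05e-10). Dnah8 fell by 1.78 on the log2 scale (SE 0.25, adjusted p = 4.05e-06).

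Gm27234, within the orexin receptor gene Hcrtr2, fell by 1.91 (SE 0.22), from 15.1, 20.7 and 13.1 CPM to 3.96, 3.75 and 2.69 CPM in the monosome. Rab26os fell by 1.55 (SE 0.14), from 51.8, 48.8 and 59.2 CPM to 20.9, 20.2 and 15.4 CPM in the monosome. It lies within the small GTPase gene Rab26, which fell by 0.51 (SE 0.16, adjusted p = 0.0104), and diverges from the ubiquitin ligase gene Traf7 at 310 bases, for which the test gave -0.17 (SE 0.09, adjusted p = 0.10). In each of these RNAs the KO monosome values lay below all WT values. Gm38979, within the calcium channel gene Ryr1, fell by 1.51 (SE 0.14), while Ryr1 had a value of 0.02 (SE 0.16, adjusted p = 0.912).

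1110002L01Rik, which starts 154 bases inside the Polycomb-associated gene Asxl2 on the opposite strand, fell by 1.32 (SE 0.17), and Asxl2 fell by 0.80 (SE 0.12). Kif3c, which 1110002L01Rik also overlaps, rose by 0.49 (SE 0.12, limma adjusted p = 0.00105). Panct2, named as a pluripotency-associated non-coding transcript, fell by 1.31 (SE 0.17), with 26.7, 32.1 and 46.4 CPM in the WT monosome and 12.9, 12.6 and 9.88 CPM in the KO monosome. 2310010J17Rik, divergent from the clathrin assembly gene Picalm at 229 bases, fell by 1.23 (SE 0.17), while Picalm rose by 0.25 (SE 0.10, adjusted p = 0.0381). Gm13580 fell by 1.137 (SE 0.11), with 76.6, 55.5 and 52.3 CPM in the KO monosome, and by more in the polysome fractions, to 9.24, 9.67 and 15.6 CPM in the high polysome. For Gm13580 the interaction was -0.78 (SE 0.28) and did not pass the test (adjusted p = 0.0544). These 8 RNAs, which fell most among those with a mean of at least 5 CPM, had limma adjusted p-values of 3.51e-06 or less over all fractions. Less abundant RNAs also fell by more than some of the 8, such as Gm10532 (-2.21, mean of 2.28 CPM).

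The RNA that rose most among those with a mean of at least 5 CPM was Vax2os. It had 9.96, 8.13 and 8.08 CPM in the WT monosome and 24.1, 18.6 and 24.6 CPM in the KO monosome, and its log2 difference over all fractions was 1.52 (SE 0.17, adjusted p = 1.99e-07). Its start lies inside Vax2, a transcription factor gene of the ventral eye, which rose by 2.73 (SE 0.15, adjusted p = 5.96e-12). 1700042O10Rik, antisense to the aromatic amino acid decarboxylase gene Ddc, rose by 1.38 (SE 0.17), from 3.98, 6.04 and 4.76 CPM to 13.7, 14.9 and 11.2 CPM in the monosome, and Ddc rose by 0.58 (SE 0.08). 2310043M15Rik, within Dop1b, rose by 1.11 (SE 0.10) and had 15.5, 14.2 and 17.6 CPM in the WT monosome against 42.9, 32.0 and 36.6 CPM in KO. Dop1b rose by 0.48 (SE 0.10, adjusted p = 0.000410).

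Gm11837 rose by 0.89 (SE 0.13), D430020J02Rik by 0.83 (SE 0.10), Gm10069 by 0.57 (SE 0.12) and Brip1os by 0.54 (SE 0.11). Gm10069 diverges from the co-chaperone gene Fkbp4, which rose by 0.34 (SE 0.09), and overlaps Pzp, which fell by 1.58 (SE 0.29). Brip1 was at -0.28 (SE 0.12, adjusted p = 0.0520) and Ncapg2 at 0.25 (SE 0.16, adjusted p = 0.177). These 7 RNAs had adjusted p-values of 0.000401 or less. Of the other 4 of the 11 called higher, all under 5 CPM on average, Gm19412 rose by 2.24 (SE 0.26, adjusted p = 2.41e-07) and is named here after its values were seen. It overlaps the antigen-processing gene Tapbp, which rose by 1.94 (SE 0.10, adjusted p = 3.15e-12).

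**Figure D4:**
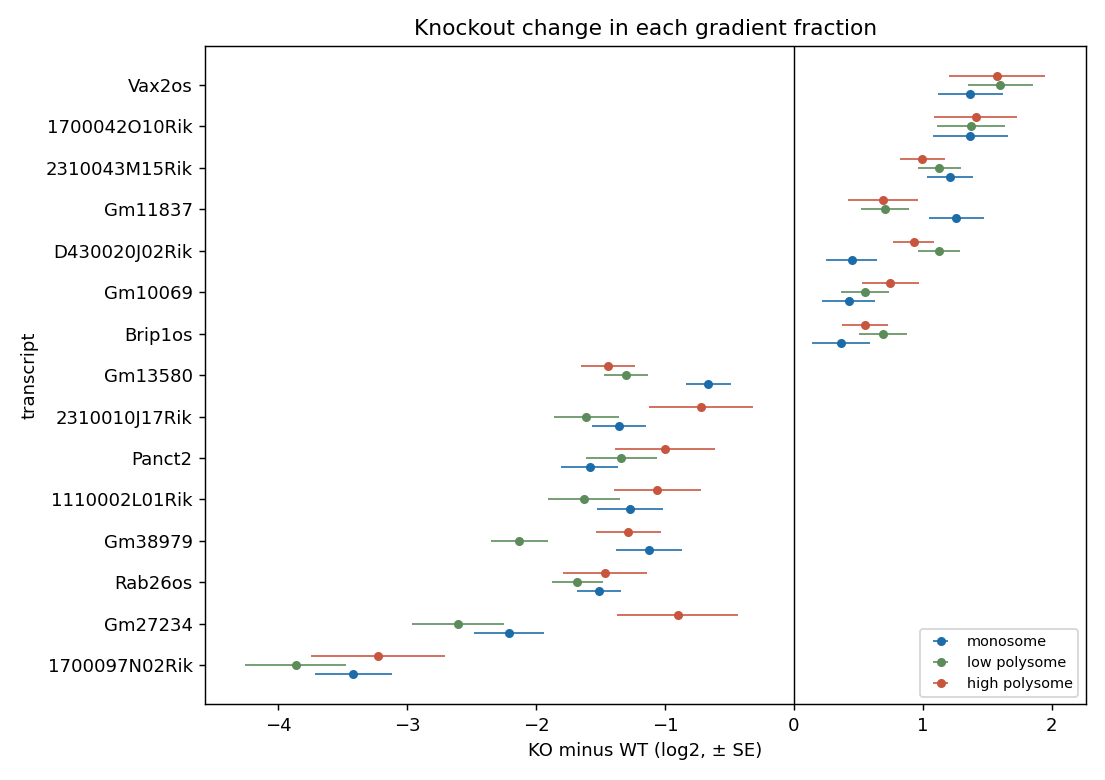
The x axis gives KO minus WT (log2 units of the limma fit, bars ± SE) in each of the 3 fractions for the 7 RNAs that rose and the 8 that fell most over all fractions among those that averaged 5 CPM or more, one RNA per row of the y axis. In every row the 3 fractions lie on the same side of 0, from -3.86 for 1700097N02Rik in the low polysome to 1.6 for Vax2os in the low polysome.

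Imprinted antisense RNAs moved in different directions. Kcnq1ot1 fell by 0.84 (SE 0.16, adjusted p = 0.000131), with 15.9, 14.9 and 16.2 CPM in the WT monosome and 5.49, 10.5 and 10.9 CPM in the KO monosome. Nespas fell by 0.78 (SE 0.15, adjusted p = 0.000154), with KO monosome levels of 12.8, 25.1 and 23 CPM. In both, the value of clone 1 in the monosome was the lowest of the 3. Igf2os, antisense in the imprinted Igf2 locus and named here after its values were seen, was at 0 to 1.20 CPM in the 9 WT libraries and at 5.12 to 14.7 CPM in the 9 KO libraries. Its log2 difference was 4.70 (SE 0.41, adjusted p = 5.15e-09), a fitted value that depends on the offset for libraries near 0. Igf2 rose by 2.52 (SE 0.13, adjusted p = 1.80e-12). Igf2os is the RNA that passed the filter through KO libraries alone.

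Others of the RNAs described for their WT distribution had the following KO differences over all fractions by limma. 4930526L06Rik, with a mean of 4.84 CPM, fell by 2.48 (SE 0.29, adjusted p = 3.34e-07). AA386476 fell by 0.92 (adjusted p = 0.0104), with an adjusted p of 0.103 at equal depth and 0.0764 without WT gradient 2. Gm9888 was at -0.40 (adjusted p = 0.0372). Gm17249 (-0.11), Gm36266 (0.05), A630072M18Rik (0.21) and Gm9776 (-0.38) did not pass the test. Ndufb1-ps was at -0.35 (SE 0.17, adjusted p = 0.0845), and its adjusted p was 0.00246 without WT gradient 3 and 0.0236 without KO gradient 1. Srrm4os fell by 0.38 (SE 0.07, adjusted p = 0.000110) and 2810013P06Rik by 0.87 (SE 0.11, adjusted p = 6.73e-07). Tug1 was at -0.36 (SE 0.17, adjusted p = 0.0655), with an adjusted p of 0.0446 without WT gradient 1. Hotairm1 had a difference of -0.57 (SE 0.22, adjusted p = 0.0272), and the adjusted p was 0.0514 with gradients averaged and between 0.0544 and 0.132 without WT gradient 1 or 3 or KO gradient 2 or 3. At equal depth that value was -0.24 (adjusted p = 0.572). 6330410L21Rik, with 5.18 to 10.7 CPM in WT and 0.109 to 1.28 CPM in KO libraries, fell by 3.40 (SE 0.26, adjusted p = 6.34e-10), although its mean level was under the 5 CPM set for the list of those that fell most. As all of its KO values lay under the 3 CPM minimum, it passed the filter through WT libraries alone, which favours a fall.

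These RNAs were set beside their protein-coding partners. A divergent partner, whose start lies within 1 kb head to head, was annotated for 71 of the 130, and 67 of these partners were tested. In WT cells 62 of the 67 RNAs had a lower high polysome over monosome ratio than the partner, with medians of -2.18 and 0.07. Of the 67 partner genes, 23 were higher and 18 lower in the high polysome. Between KO and WT over all fractions 28 partners rose and 20 fell, with a median of 0.14, while the paired RNAs had a median of -0.57 with 37 lower. Of those 37, the partner also fell for 16, rose for 9 and passed no test for 12. Spearman's rho between RNA and partner was 0.42 over the 67 pairs, and 0.40 without Vax2os.

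An overlapped coding gene on the opposite strand was annotated for 106 RNAs, and 84 were tested. The rho of the KO changes was 0.18 over these 84 pairs. Of the 51 RNAs that fell in KO cells, the overlapped gene fell for 19, rose for 18 and was not called for 14. Many pairs belong to both sets, such as 1600020E01Rik with Pcbp1 and Vax2os with Vax2, so the divergent and overlapped sets are not independent. Both rho values are descriptions over pairs measured in the same libraries, and their difference was not tested.

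**Figure D5:**
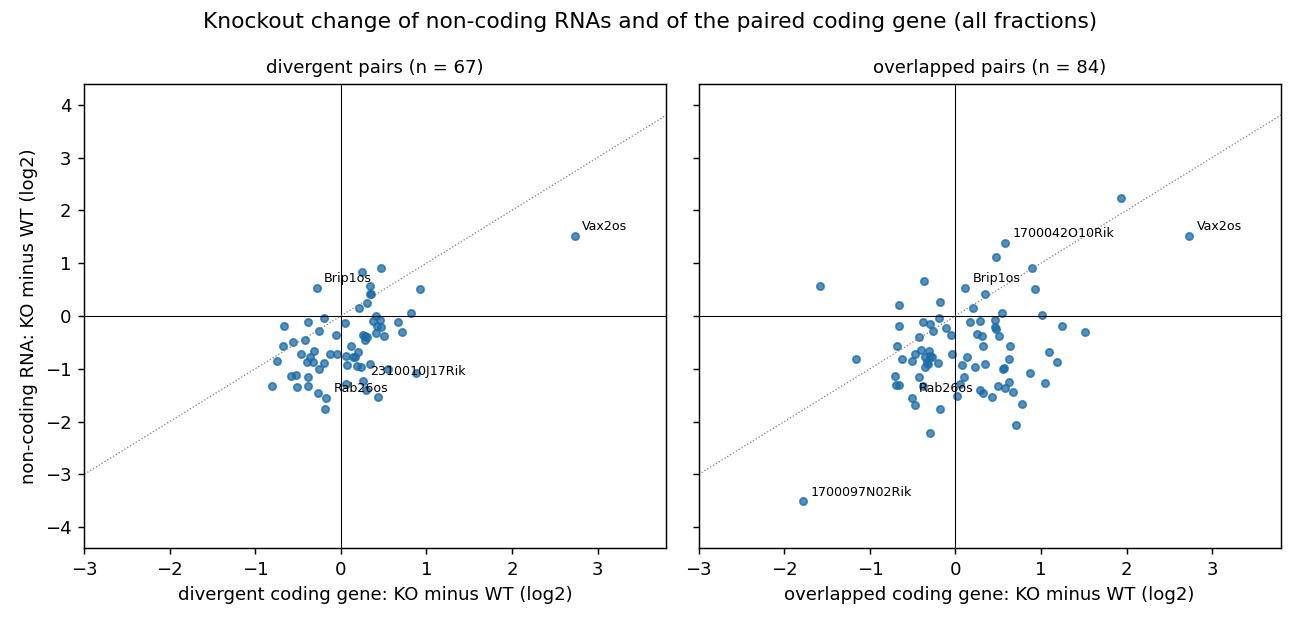
The x axis gives the KO minus WT difference of the coding gene and the y axis that of the paired non-coding RNA (both log2, all fractions), for the 67 divergent pairs on the left and the 84 overlapped pairs on the right, 1 point per pair. The dotted line marks equal change. Most points lie below it (56 of 67 and 66 of 84), and Vax2os with Vax2 lies at the upper right in both panels. Pairs that belong to both sets appear in both panels.

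The promoters of these RNAs were rich in CG dinucleotides. RefSeq promoter windows (GRCm38.p6, 250 bases before to 50 after the start) were found for 71 of the 130 RNAs, in 82 windows, with a median of 19.5 CG dinucleotides and 61.3% G plus C. Over all 32851 windows the medians were 7 CG and 52.7%. These were taken whether or not their gene passed the CPM filter, so the comparison does not separate the type of gene from its expression. The CCAAT box, spelled CCAAT and searched on both strands, was present in 51.2% of the windows of these RNAs and in 37.4% of all windows. TATAAA, searched likewise, was present in 7.32% and 13.6%. The BC051226 window is shown because it covers the short stretch from which BC051226 and Daxx start in opposite directions, and because their levels moved apart in KO cells. It lies at chr17:33909129-33909428 (minus strand) and holds 31 CG dinucleotides, in capitals, with 1 CCAAT box and no TATAAA.
BC051226: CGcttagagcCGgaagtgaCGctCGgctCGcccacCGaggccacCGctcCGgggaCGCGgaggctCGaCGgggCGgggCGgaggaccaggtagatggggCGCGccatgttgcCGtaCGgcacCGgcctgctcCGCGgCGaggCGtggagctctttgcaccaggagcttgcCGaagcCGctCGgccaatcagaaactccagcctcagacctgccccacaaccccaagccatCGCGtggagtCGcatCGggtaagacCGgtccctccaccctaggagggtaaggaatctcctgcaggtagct
Daxx rose by 0.42 (SE 0.07, adjusted p = 5.42e-05), whereas BC051226 was lower by 0.31 (SE 0.14, adjusted p = 0.0483). The adjusted p of BC051226 was 0.187 without WT gradient 1, 0.0741 without KO gradient 1 and 0.0995 without KO gradient 2.

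Genes of the nuclear machinery that removes promoter-derived RNAs were measured in the same fits. All 12 listed factors of the exosome adaptor complexes NEXT and PAXT and of the cap-binding partners were tested, and over all fractions 6 were lower and 1 higher in KO cells, beside 31.5% and 30.6% of all genes, with a median log2 difference of -0.16 against -0.02 over all genes. Mtrex, the helicase of the exosome adaptors, fell by 0.90 (SE 0.11, adjusted p = 5.50e-07). Rbm26, an RNA-binding protein linked to PAXT, fell by 0.81 (SE 0.10) and Zfc3h1, a core PAXT protein, by 0.51 (SE 0.12). Pabpn1, the nuclear poly(A)-binding protein, fell by 0.57 (SE 0.12), Rbm7, the RNA-binding subunit of NEXT, by 0.31 (SE 0.09) and Ncbp2, of the cap-binding complex, by 0.30 (SE 0.07). Ncbp1, the other subunit of that complex, rose by 0.43 (SE 0.07). Zcchc8, the scaffold of NEXT, was at 0.01 (SE 0.07, adjusted p = 0.923). In the high polysome alone, 3 of the 12 were lower and 5 higher in KO cells, beside 21.1% and 25.3% of all genes. Among those higher there were Srrt (0.65, SE 0.13) and Zc3h3 (1.15, SE 0.35), and among those lower Mtrex (-0.58, SE 0.19). The part of these genes in the levels of the antisense and divergent RNAs was not tested.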

How the data were processed

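Monosome, low polysome and high polysome RNA of 3 WT and 3 Ddx6 KO gradients was sequenced as QuantSeq 3′ FWD libraries. Per the file headers and the submitters' processing notes, the authors trimmed reads with cutadapt 1.14, aligned them to mm10 with STAR 2.5.3a and deposited unique-read counts per gene from featureCounts 1.5.3, strand-specific, with Gencode M14 basic plus ERCC spike-in sequences. Each read marks a 3′ end, so counts were not divided by length. No molecular identifiers are mentioned, so PCR copies are among the counts, and reads in 2 genes of 1 strand were dropped.

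The table held 51467 genes and 92 spike-ins, which were left out. Types, coordinates and transcripts came from Gencode M21 (51274 identifiers matched; same assembly), used for the reading frames and for partner genes. Genes with at least 3 CPM in at least 3 libraries (12705) were scaled by TMM (edgeR 4.0.16) and fitted with limma-voom 3.58.1 (R 4.3.3) as 6 group means, with two-sided tests. Calls needed an adjusted p (Benjamini-Hochberg, all genes tested) under 0.05. The filter, limma and the interaction follow the study's methods. KO libraries of 1 clone may share more than those of different clones, and replicates are separate gradients whose cultures are not described, so p-values measure the spread between gradients. The comparison over all fractions counts 9 libraries per genotype, whose fractions share lysates, so gradient means were also tested with limma-trend. Levels are TMM-scaled CPM and are relative to the other genes of a library.

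The members and lists were chosen with earlier results of these data known. Named RNAs were the 8 most abundant, the 6 highest and 6 lowest in WT high polysome over monosome (mean of at least 5 CPM over the 6 WT libraries of these fractions), all called in the interaction, up to 8 that rose and 8 that fell most (mean of at least 5 CPM over all libraries), bidirectional RNAs of at least 5 CPM, and known RNAs listed by name. Of the bidirectional RNAs, Gm17251 had a WT log2 ratio of -1.34 and a KO change of -0.05. The fractions of a gradient share a lysate. Deviations of same-gradient libraries correlated above 0.1 in 7 of 18 pairs (-0.17 to 0.44), and the gradient block was run as the alternative. The fit was tested on simulated data. Alternatives were other scalings, filters, tools, depth, blocks and left-out gradients.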

Additional observations from a re-analysis of the deposited data

Results flagged for a closer look

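The high polysome over monosome ratio differed between KO and WT gradients, by the interaction test, for 5 RNAs. The difference was 1.04 on the log2 scale for 9130221H12Rik, 1.35 for B230354K17Rik, -1.27 for Gm12925, -1.0 for Rab10os and -1.08 for Sp3os. All 5 kept their sign when any single gradient was left out, and each lost its call in at least 3 of those 6 fits.

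The spike-in sequences, which no comparison used, had between 28 and 169 counts per library, above the 3 counts that a library without them allows in all 18 libraries. No value was scaled to them.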

How the results depend on the processing

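The replicate numbers do not pair WT with KO gradients (correlations above 0.1 in 2 of 9 pairs, -0.46 to 0.23). With the replicate block, by gradient for fractions and by number for genotypes, every count of called RNAs stayed within 1.5 times its main value, as it did with DESeq2 size factors, edgeR quasi-likelihood and DESeq2. The block ended the call of Gm12925 in low polysome over monosome (0.54) and brought 2 genotype differences past the threshold, Ndufb1-ps (-0.35) and Rab10os (-0.26). With library size alone, the KO high polysome over monosome had 1 RNA higher and the KO effect 1 raised. Over all genes the higher share of the KO effect was 60.1% with TMM, 51.0% with DESeq2 size factors and 40.3% with library size alone, which moved the median of all genes from 0.02 to -0.10. Without a filter the KO effect had 1 raised RNA, limma-trend gave 4 and the set without same-strand neighbours (120 RNAs) 1. The KO effect had 5 lowered RNAs with only the compared groups and 5 at equal depth. Equal depth also gave 1 higher in KO high polysome over monosome, and 4 higher and 16 lower in KO against WT in the high polysome.

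With a 10 CPM filter 40 RNAs were tested, which lowers counts by construction. WT high polysome over monosome then had 0 higher by limma (Brip1os, the only one of both tested, had an adjusted p of 0.0632) and 37 lower, WT low over monosome 4 and 21, and KO high over monosome 1 and 36. The lower counts of KO against WT were 21 over all fractions and 19, 22 and 13 in the monosome, low and high polysome. Among the 72 RNAs past the filter in each genotype, fractions gave 62, 29 and 64 lower, and KO against WT 34, 20, 32 and 12, in the same order.

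Leaving out 1 gradient gave 1 to 2 higher and 97 to 111 lower for WT high polysome over monosome, 5 to 8 and 35 to 45 for WT low polysome over monosome, 1 to 3 and 106 to 115 for KO high polysome over monosome, and 0 to 3 and 0 to 2 for the KO effect. KO against WT had 10 to 13 higher and 65 to 69 lower over all fractions, 6 to 10 and 32 to 44 in the monosome, 8 to 9 and 48 to 58 in the low polysome, and 8 to 9 and 19 to 33 in the high polysome. Averaging the fractions of each gradient gave 11 higher and 69 lower over all fractions. Of the 86 RNAs called in KO against WT over all fractions, 1 changed sign at equal depth. Among the named RNAs, signs turned for the following, none of which passed the test. In WT high polysome over monosome these were D430020J02Rik (0.0709 without a filter and -0.2163 to 0.0539 over the left-out gradients), Gm9888 (0.0370 and -0.2702 to 0.2527) and 6330410L21Rik (-0.0154 to 0.2967 over the left-out gradients). For KO against WT it was Gm17249 (-0.3406 to 0.1392). Where no cause is named, the cause was not tested. The limits are low counts in the high polysome, 3 gradients per genotype and 1 gradient of clone 1.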
